A study of Mus musculus with 6 samples.

Results

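Mouse platelet RNA was examined for the genes that carry out and regulate granule secretion: the vesicle SNAREs Vamp8, Vamp7, Vamp3 and Vamp2, the plasma membrane SNAREs Snap23, Stx11 and Stx4a, the syntaxin chaperone Stxbp2, the priming factor Unc13d, and Nbeal2, which is needed to form alpha granules. The 10 genes were picked by symbol, and the rule sets no threshold on their values. Of these, 9 had a row among the 14975 genes of the deposited table, and Vamp7 was not analysed here. The libraries were 3 control and 3 pre-AML samples of peripheral blood platelets, labelled WT and AML, on a C57BL/6 background. By the study's methods the mice were females of 8 to 12 weeks. Control mice had received normal bone marrow after irradiation. Pre-AML mice were sub-lethally irradiated secondary recipients (CD45.1 or C57BL/6) of GFP-positive leukemia cells, which had been made by retroviral MLL-AF9 expression in Lin-c-kit+Sca-1+ stem and progenitor cells, and platelets were taken 1 week after transplantation. MLL-AF9 is a fusion oncogene of acute myeloid leukemia (AML), here expressed from a virus and not from its own locus. The share of platelets from host or donor cells was not measured here. The series text states 2 replicates per group and pools of 3 to 4 mice for a sample, whereas the methods state 3 independent mice. p-values therefore measure the spread between these libraries, part of which may be technical.

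Platelets release the contents of alpha granules, dense granules and lysosomes when they are activated. Fusion of a granule with the plasma membrane or the open canalicular system is driven by a bundle of SNARE helices, in which a vesicle protein (an R-SNARE, or VAMP) pairs with a syntaxin and a SNAP-23-type protein on the target membrane. Munc18 proteins hold syntaxins and guide assembly of the bundle, Munc13 proteins prime docked granules, and NSF with its SNAP adaptors takes used bundles apart. Platelets have no nucleus, and their RNA is largely inherited from megakaryocytes. In bulk RNA, fewer cells of a type and less RNA per cell cannot be told apart.

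Levels are given as FPKM, read fragments scaled for exon length and library size. For the 9 secretion genes the length was that of all annotated exons of a gene together. Which of these exons the platelet transcripts hold was not tested, so comparisons of level between genes depend on these lengths. The reads behind the values were recovered from ratios of FPKM between libraries and from annotated exon lengths. The libraries held between 11780200 and 17522269 reads on genes of known exon length. All 15 platelet markers were at 1 FPKM or more in the controls, led by the chemokine genes Pf4 (38150 to 79255 FPKM over the 6 libraries) and Ppbp. Their summed level was 92266 to 116037 FPKM in the controls and 63113 to 94563 FPKM in the pre-AML libraries, the lowest being pre-AML 3. Summed over all genes, FPKM was 376148 in pre-AML 3 and 508605 to 541784 in the other libraries. Lower values in pre-AML 3 were thus not particular to the platelet markers. That library stood apart in other ways too. The median log2 ratio of its monocyte and macrophage markers to the control mean (FPKM + 1) was 2.34, against -0.0023 in pre-AML 1 and 0.30 in pre-AML 2. The summed level of this list of 12 genes was 2385 to 2616 FPKM in the controls and 2342 to 3357 FPKM in the pre-AML libraries, most of it from Lyz2. Tyrobp, a signaling adaptor of myeloid and NK cells, was between 0.126 and 0.533 FPKM in the controls and at 4.85, 4.37 and 153.3 FPKM in pre-AML 1, 2 and 3. Ccr2 and Fcgr1 were at 0 in all controls. In pre-AML 1, 2 and 3, Ccr2 was at 0.101, 0.040 and 1.26 FPKM and Fcgr1 at 0, 0.026 and 0.364 FPKM. The B cell markers, led by Cd79b and Cd79a, summed to 0.158 to 0.903 FPKM in the controls. Their sum was 0.209, 4.92 and 63.8 FPKM in pre-AML 1, 2 and 3. Pax5 and Blk were at 0 in the controls. In pre-AML 1, 2 and 3, Pax5 was at 0, 0 and 0.189 FPKM and Blk at 0, 0.442 and 3.18 FPKM. The T and NK cell markers were led by Nkg7 and Gzma. They summed to 19.1 to 29.0 FPKM in the controls and 35.5 to 50.3 FPKM in the pre-AML libraries. Nkg7 overlapped between groups, at 18.9 to 28.2 FPKM in the controls and 22.6 to 27.9 FPKM in pre-AML. Gzma was at 0.353 FPKM or less in the controls and at 4.61 to 8.90 FPKM in pre-AML. Cd3g, Cd2, Prf1 and Ncr1 were at 0 in the controls. In pre-AML, Cd3g was at 0.406 FPKM or less and Cd2 at 0.495 to 6.84 FPKM. Prf1 was there at 0.513 to 1.29 FPKM and Ncr1 at 0.344 to 2.06 FPKM. The neutrophil list (S100a8, Mmp8) went both ways. Its sum was 3.16 to 3.66 FPKM in the controls and 1.67 FPKM (pre-AML 3) to 4.998 FPKM (pre-AML 1) in the pre-AML libraries. Ly6g, Elane, Mpo, Retnlg and Lcn2 were at 0 in the controls. They were also near 0 in pre-AML, at 0.239 FPKM or less in every library, on at most 8 reads. The erythroid list, led by Hba-a1 and Hbb-bt, summed to 2350 to 2991 FPKM over the 6 libraries. The pan-leukocyte list, led by Laptm5 and Cd53, summed to 768 to 796 FPKM in the controls and 797 to 894 FPKM in the pre-AML libraries. The groups were barely apart (796.1 against 796.7 FPKM). Most of the sum came from Laptm5, which overlapped between groups at 729 to 866 FPKM. Of the 4 tested genes of this list, 3 had log2 fold changes above 0 and 1 below. The latter was Cd53, at 54.4, 37.3 and 35.7 FPKM in the controls and 29.6, 25.1 and 30.1 FPKM in the pre-AML libraries. The median log2 ratio of the list to the control mean was 0.14, 0.23 and 1.31 in pre-AML 1, 2 and 3. Whether RNA of other cells had a part in the results below was not tested, and fold changes without pre-AML 3 are given for the tested secretion genes and for the named, tested related genes that were lowest in that library and did not overlap between groups.

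The secretion genes spanned a wide range of levels in these platelets. Of the 9, 2 were above 100 FPKM on average (Stx11 and Snap23), 4 were between 10 and 100 (Vamp3, Stxbp2, Unc13d, Vamp8), 2 were between 1 and 10 (Stx4a, Vamp2), and Nbeal2 was below 1. Stx11 ranked 166 and Snap23 188 among all 14975 genes by mean FPKM, within the top 1.11% and 1.26%. In the order of mean levels, Stx11 and Snap23 could not be separated by their ranges, nor could Vamp3 and Stxbp2, or Stxbp2 and Unc13d. In each of these pairs the first gene was higher in 5 of 6 libraries. The other steps held in 6 of 6 libraries with no overlap of ranges: Snap23 lay above Vamp3 by 6.65 times, Unc13d above Vamp8 by 1.57 times, Vamp8 above Stx4a by 3.15 times, Stx4a above Vamp2 by 3.26 times and Vamp2 above Nbeal2 by 2.27 times, as ratios of mean FPKM.

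**Figure D1:**
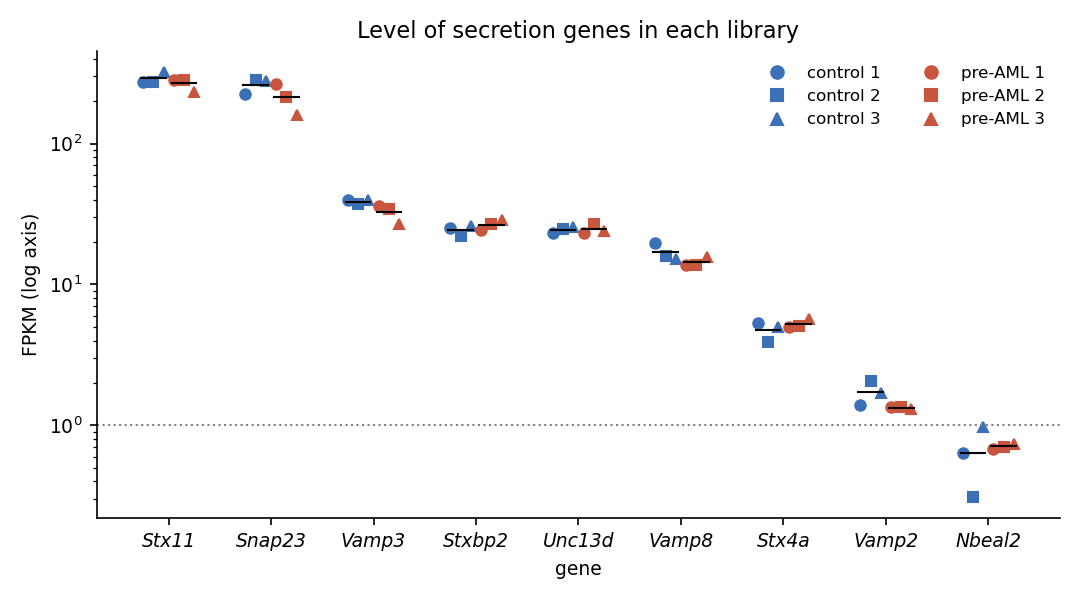
FPKM (log axis) of the 9 secretion genes in each library, with circles, squares and triangles for replicates 1, 2 and 3, control libraries in blue, pre-AML libraries in red and group means as short lines; the dotted line marks 1 FPKM, the mean needed for testing. Stx11 and Snap23 lie above 100 FPKM in every library and Nbeal2 below 1 FPKM in every library.

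No secretion gene passed the test between pre-AML and control platelets. Limma-trend on log2(FPKM + 1) was run on the 4412 genes that averaged 1 FPKM or more, which included 8 of the 9 secretion genes, and 0 of these 8 had a Benjamini-Hochberg adjusted p under 0.05. The background was low as well, at 0.0227% of tested genes (1 gene, Gzma, a cytotoxic granule protease). At an unadjusted p under 0.05, 0 of the 8 passed, against 9.09% of all tested genes, and limma-voom on the recovered reads also called 0. Adjusted p-values of the 8 genes ran from 0.536 to 0.981. Their log2 fold changes, pre-AML over control, were above 0 for 3 and below 0 for 5, with a median of -0.16 against -0.055 for all tested genes, of which 58.5% were below 0. The 95% confidence intervals all spanned 0, and their outer bounds over the 8 genes were -0.77 and 0.47 on the log2 scale, so that true changes up to these sizes remained possible. Pre-AML and control libraries did not overlap for 2 of the 9 genes, Vamp3 and Vamp2, both lower in pre-AML, where 12.8% of all tested genes had this pattern. No secretion gene (0 of 9) showed the opposite pattern, which 6.14% of tested genes had.

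**Figure D2:**
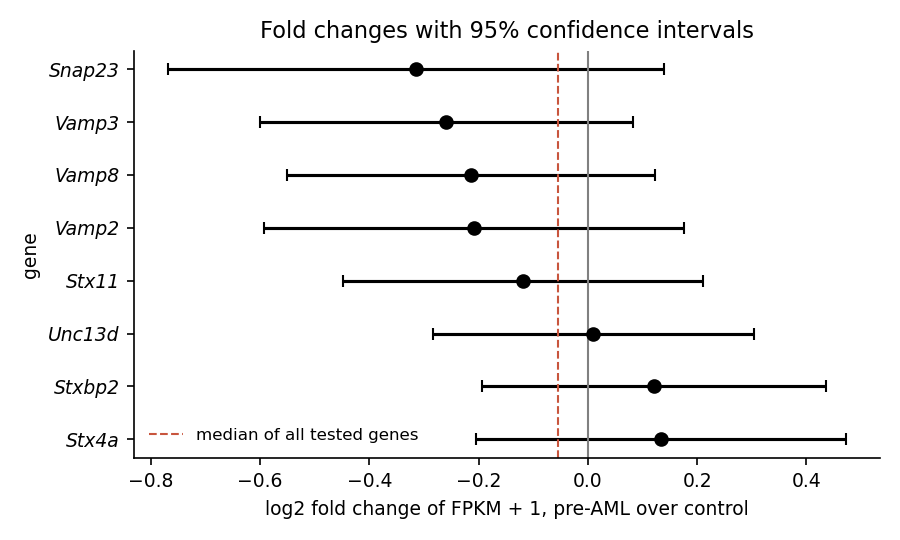
Log2 fold change of FPKM + 1, pre-AML over control (3 libraries each), of the 8 tested secretion genes, as points with 95% confidence intervals from limma-trend; the dashed line is the median of all 4412 tested genes, at -0.055. Every interval crosses 0, and the most negative point is Snap23 at -0.31.

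The syntaxins and SNAP-23 form the target-membrane side of the bundle. Stx11 encodes a lipid-anchored syntaxin needed for secretion from platelets and cytotoxic lymphocytes, and its loss causes a familial hemophagocytic syndrome in humans. The gene lies on chromosome 10 (12938209 to 12964298, minus strand, GRCm38). Stx11 was at 272.1, 274.7 and 322.1 FPKM in control 1, 2 and 3 and at 284.1, 283.8 and 232.8 FPKM in pre-AML 1, 2 and 3, on 13443 to 22859 reads. The groups overlapped, with the highest value in control 3 and the lowest in pre-AML 3. The means were 290 ± 28.1 and 267 ± 29.6 FPKM (SD, n = 3), with a log2 fold change of -0.12 (SE 0.14, 95% interval -0.45 to 0.21, limma adjusted p = 0.735). The sign depended on the scaling: with libraries scaled to equal FPKM sums the fold change was 0.052, where the median of all tested genes moved from -0.055 to 0.090. It was -0.024 without pre-AML 3, -0.041 without control 3 and -0.025 with length and GC trends removed.

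Stx4a encodes a widely expressed plasma membrane syntaxin. Its gene lies on chromosome 7 (127824294 to 127849019, plus strand). Stx4a was at 5.30, 3.88 and 5.01 FPKM in the controls and 4.96, 5.08 and 5.73 FPKM in the pre-AML libraries, on 129 to 316 reads. The lowest value was control 2 and the highest pre-AML 3, and the others lay close together. The log2 fold change was 0.13 (SE 0.15, 95% interval -0.21 to 0.47, limma adjusted p = 0.715). It was 0.022 without control 2, 0.079 without pre-AML 3, -0.0047 with length and GC trends removed and 0.30 with libraries scaled to equal FPKM sums.

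Within each library Stx11 exceeded Stx4a by between 40.6 and 70.8 times in FPKM. Stx11 made up 98.1, 98.6 and 98.5% of the summed level of the pair in the controls and 98.3, 98.2 and 97.6% in the pre-AML libraries. The share did not separate the groups, with a difference of -0.35 percentage points (exact permutation test, two-sided p = 0.3, adjusted over 2 shares 0.6). With 3 against 3 libraries the smallest p this test can give is 0.1. Promoter sequences of this pair are shown because they are the most abundant and the least abundant of the target-membrane SNAREs chosen here. They were taken from RefSeq (GRCm38.p6), from 250 bases before to 50 bases after the annotated start, and 6 of the 10 genes had an entry. The Stx11 window is chr10:12964210-12964509 on the minus strand and the Stx4a window chr7:127841558-127841857 on the plus strand, which lies inside the gene as GENCODE draws it. Capitals mark the ETS motif CGGAAG on either strand (as CTTCCG):

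Stx11: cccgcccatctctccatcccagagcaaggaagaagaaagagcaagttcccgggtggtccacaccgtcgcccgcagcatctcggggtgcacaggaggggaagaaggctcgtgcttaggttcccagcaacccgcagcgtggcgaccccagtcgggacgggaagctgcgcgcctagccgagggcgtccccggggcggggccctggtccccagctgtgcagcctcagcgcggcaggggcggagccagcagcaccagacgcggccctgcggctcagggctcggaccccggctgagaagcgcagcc

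Stx4a: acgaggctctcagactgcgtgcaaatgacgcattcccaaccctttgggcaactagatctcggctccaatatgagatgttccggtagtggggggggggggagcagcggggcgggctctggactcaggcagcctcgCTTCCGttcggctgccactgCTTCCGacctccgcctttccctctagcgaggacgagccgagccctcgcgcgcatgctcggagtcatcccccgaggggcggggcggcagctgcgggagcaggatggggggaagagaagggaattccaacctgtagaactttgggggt

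The Stx11 window is 71% G and C and holds 27 CpG, and the Stx4a window is 64.3% G and C with 23 CpG. The ETS motif occurred 0 times in the first and 2 times in the second, and the GATA motif AGATAA (or TTATCT) 0 times in both. The motifs do not overlap each other. Over all 32851 RefSeq promoter windows of that length, 16.9% held the ETS motif and 11.2% the GATA motif. Among the other 4 genes with an entry, the Stxbp2 window held the ETS motif 1 time, while the Vamp8, Snap23 and Nbeal2 windows held it 0 times.

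Snap23 encodes the palmitoylated Qbc-SNARE that supplies a pair of helices to the platelet bundle. The gene lies on chromosome 2 (120567671 to 120601255, plus strand). Snap23 was at 223.7, 282.1 and 278.2 FPKM in the controls and 262.7, 215.7 and 160.5 FPKM in the pre-AML libraries, on 11272 to 17041 reads. Pre-AML 3 was the lowest library, and the remaining pre-AML values lay within or just below the control range. The means were 261 ± 32.6 and 213 ± 51.1 FPKM (SD, n = 3). The log2 fold change of -0.31 (SE 0.20, 95% interval -0.77 to 0.14) did not pass the test (limma adjusted p = 0.555). Leaving out pre-AML 3 gave -0.13, and leaving out pre-AML 1 gave -0.48 (adjusted p = 0.331). With length and GC trends removed it was -0.024, and the transcript had the lowest GC content of the 9 genes, 40.3%. The part that base composition had in the difference was not tested further.

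The vesicle SNAREs sit on the granule side. VAMP-8 is the endobrevin protein that platelets depend on most for release, while VAMP-3 (cellubrevin) and VAMP-2 (synaptobrevin) are related proteins that can take its place in part. All 3 had log2 fold changes below 0, from -0.26 to -0.21, and none of the 3 passed the test. Vamp8 (chromosome 6, 72385223 to 72390703, minus strand) was at 19.8, 16.1 and 15.1 FPKM in the controls and 13.8, 13.8 and 15.8 FPKM in the pre-AML libraries, on 416 to 851 reads. Control 1 was the highest library, pre-AML 1 and 2 were the lowest, and pre-AML 3 lay within the control range. The means were 17.0 ± 2.45 and 14.4 ± 1.17 FPKM (SD, n = 3), with a log2 fold change of -0.21 (SE 0.15, 95% interval -0.55 to 0.12, limma adjusted p = 0.578). It was -0.11 without control 1 and -0.053 with libraries scaled to equal FPKM sums. Other settings gave larger changes, with -0.29 without control 3 and -0.28 without pre-AML 3. With length and GC trends removed it was -0.28 (95% interval -0.55 to -0.0020, limma adjusted p = 0.741).

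By FPKM, Vamp3 (chromosome 4, 151047300 to 151057963, minus strand) was the most abundant of the VAMPs with a row, which leaves out Vamp7. Its FPKM was 1.71 to 2.64 times that of Vamp8. The exon lengths were 2889 bases for Vamp3 and 2311 bases for Vamp8, and the lengths of the transcripts present were not tested. Vamp3 was at 39.5, 37.0 and 39.9 FPKM in the controls and 36.1, 34.3 and 26.9 FPKM in the pre-AML libraries, on 1339 to 1816 reads. Every control library lay above every pre-AML library, but control 2 and pre-AML 1 were close, and pre-AML 3 was the farthest below. The means were 38.8 ± 1.55 and 32.5 ± 4.87 FPKM (SD, n = 3), with a log2 fold change of -0.26 (SE 0.15, 95% interval -0.60 to 0.08, limma adjusted p = 0.536). Without pre-AML 3 the fold change was -0.13, with length and GC trends removed it was -0.10, and with libraries scaled to equal FPKM sums it was -0.094.

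Vamp2 (chromosome 11, 69088490 to 69092384, plus strand) was a minor VAMP. It was at 1.39, 2.07 and 1.70 FPKM in the controls and 1.36, 1.34 and 1.32 FPKM in the pre-AML libraries. All pre-AML values lay below all control values, although control 1 exceeded pre-AML 1 only slightly. These levels rested on 62, 111 and 77 reads in the controls and on 69, 77 and 117 reads in the pre-AML libraries. The counting interval of control 1 was 1.06 to 1.78 FPKM and that of pre-AML 3 was 1.09 to 1.58 FPKM (exact Poisson, 95%, counting error only), so that these libraries could not be separated. The spread of the 3 pre-AML values (CV 1.68%) was smaller than the 10.7% that counting alone gives at this depth. The log2 fold change was -0.21 (SE 0.17, 95% interval -0.59 to 0.18, limma adjusted p = 0.614), -0.12 without control 2 and -0.36 by limma-voom on the recovered reads.

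The balance between the vesicle SNAREs was measured as the share of Vamp8 in the summed FPKM of Vamp8, Vamp3 and Vamp2. This share does not depend on a factor common to all genes of a library. It does depend on exon lengths and on length and GC trends that differ between libraries. With such trends removed, log2 fold changes were -0.28 for Vamp8, -0.10 for Vamp3 and -0.30 for Vamp2, and the share was not computed. The share was 32.6, 29.1 and 26.7% in the controls and 26.8, 27.8 and 35.8% in the pre-AML libraries. Pre-AML 3 was the highest and the other pre-AML libraries lay within the control range. The means were 29.5 ± 2.97% and 30.2 ± 4.93% (SD, n = 3), a difference of 0.714 percentage points (exact permutation test, two-sided p = 0.8, adjusted over 2 shares 0.8). The sign rested on single libraries: the difference was -2.12 points without pre-AML 3 and -0.68 points without control 3.

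The chaperone and priming genes had log2 fold changes above 0, of 0.12 and 0.0097, and neither passed the test. Stxbp2 encodes Munc18-2, the partner of syntaxin-11, and Unc13d encodes Munc13-4, a calcium-binding priming factor of platelet and lymphocyte granules; loss of either protein impairs release. Stxbp2 (chromosome 8) was at 25.3, 21.9 and 26.0 FPKM in the controls and 24.2, 27.0 and 28.7 FPKM in the pre-AML libraries, on 1235 to 2788 reads. The groups overlapped, with control 2 the lowest and pre-AML 3 the highest. The log2 fold change was 0.12 (SE 0.14, 95% interval -0.19 to 0.44, limma adjusted p = 0.720). It was 0.049 without control 2, 0.066 without pre-AML 3, 0.030 with length and GC trends removed and 0.29 with libraries scaled to equal FPKM sums.

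Unc13d (chromosome 11, 116062095 to 116077961, minus strand) was at 23.2, 24.7 and 25.6 FPKM in the controls and 23.3, 26.7 and 24.1 FPKM in the pre-AML libraries, on 1273 to 2630 reads. The libraries of the groups were interleaved. The means were 24.5 ± 1.23 and 24.7 ± 1.81 FPKM (SD, n = 3), and the log2 fold change was 0.0097 (SE 0.13, 95% interval -0.28 to 0.30, limma adjusted p = 0.981). Within a library, Stxbp2 was between 0.888 and 1.19 times the level of Unc13d. The fold change of Unc13d was 0.18 with libraries scaled to equal FPKM sums and -0.15 with length and GC trends removed.

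Nbeal2 encodes a large BEACH-domain protein needed for alpha granules, and its loss causes gray platelet syndrome. The gene (chromosome 9, 110624789 to 110654161, minus strand) was the least abundant of the set and fell below the filter. Nbeal2 was at 0.642, 0.312 and 0.968 FPKM in the controls and 0.684, 0.708 and 0.736 FPKM in the pre-AML libraries. Control 2 and control 3 were the lowest and the highest of the 6 libraries, and the pre-AML values lay between them. The control reads were 72, 42 and 110, and the control CV of 51.1% was above the 11.6% expected from counting alone, while the pre-AML CV of 3.62% was below its 9.22%. In the fit without a filter the log2 fold change was 0.079 (SE 0.18, 95% interval -0.35 to 0.51, limma adjusted p = 0.881). The annotation places the microRNA gene Mir8107 on 22 of its exon bases.

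The library that carried the extreme values was often pre-AML 3. It was the lowest of the 6 libraries for 4 of the 9 genes (Stx11, Snap23, Vamp3, Vamp2) and the highest for 2 (Stxbp2 and Stx4a). The share of all tested genes with these patterns was not counted, so the counts are not a result about the secretion genes. Over all genes, FPKM summed to 376148 in pre-AML 3 and to 508605 or more in each other library. Without pre-AML 3, the log2 fold changes of Stx11, Snap23, Vamp3, Stxbp2 and Stx4a moved towards 0, whereas Vamp8 was at -0.28, Vamp2 at -0.20 and Unc13d at 0.026. The platelet markers of that library lay at a median of -0.29 from the control mean. Scaled to the platelet markers, the log2 fold changes were -0.18 for Snap23, -0.13 for Vamp3, -0.13 for Vamp2, -0.084 for Vamp8 and 0.018 for Stx11. Stx4a, Stxbp2 and Unc13d moved away from 0, to 0.25, 0.25 and 0.14. The median of all tested genes moved from -0.055 to 0.053 with this scaling.

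**Figure D3:**
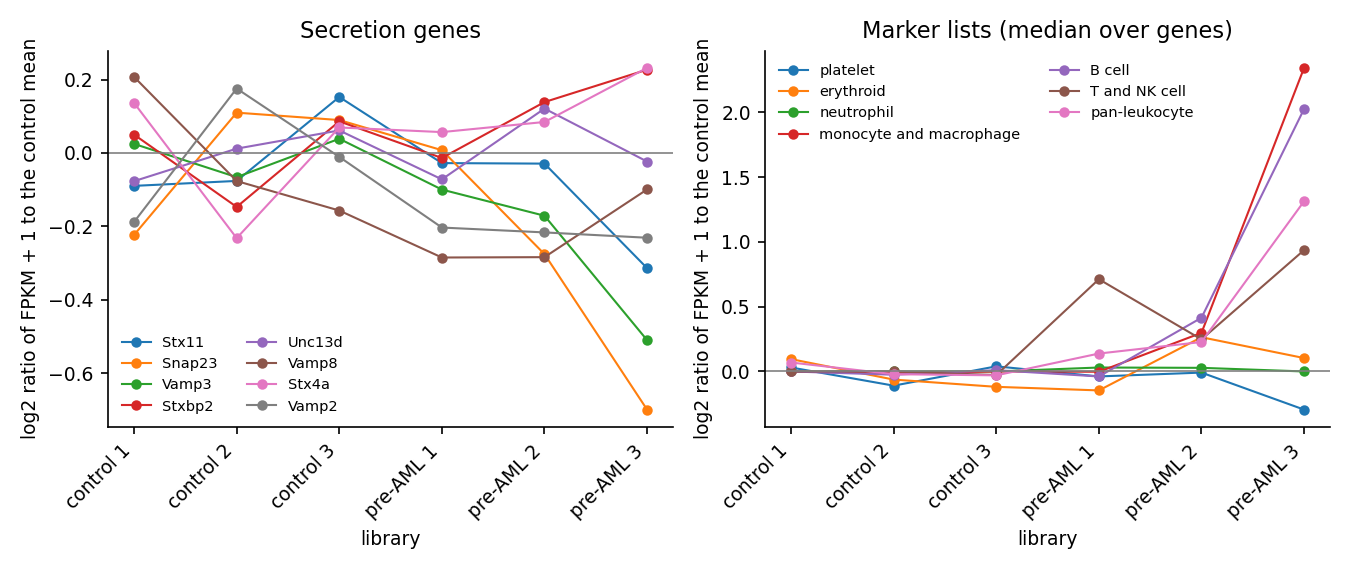
Log2 ratio of FPKM + 1 to the control mean in each of the 6 libraries, for the 8 tested secretion genes (left) and as the median over the genes of each marker list (right, on a wider axis); lines only join the points of a gene or list. In pre-AML 3, Snap23 and Vamp3 lie lowest on the left, and the monocyte and macrophage list reaches 2.34 on the right.

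Genes of the same machinery were examined in 7 further lists of 79 genes in all, of which 71 had a row and 30 were tested. At an adjusted p under 0.05, 0 of the 30 passed by limma-trend. At an unadjusted p under 0.05, 2 were lower in pre-AML (Rab27b and Exoc6) and 0 were higher, against 6.53% and 2.56% of all tested genes. The log2 fold changes were above 0 for 14 and below 0 for 16, with a median of -0.070.

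Among the tethering and docking genes (7 tested of 24, median log2 fold change -0.070), the most abundant were Sytl4, Rab27b and Exoc6. Rab27b encodes a small GTPase that docks dense granules, and was at 34.0, 36.5 and 36.9 FPKM in the controls and 30.5, 27.5 and 19.0 FPKM in the pre-AML libraries. All pre-AML values were lower and pre-AML 3 was the lowest. Its log2 fold change was -0.49 (SE 0.18, 95% interval -0.91 to -0.07, limma adjusted p = 0.522), and -0.29 without pre-AML 3. Exoc6, a subunit of the exocyst tethering complex, was at 16.7, 20.9 and 21.3 FPKM in the controls and 14.2, 14.4 and 8.46 FPKM in the pre-AML libraries. Here too the groups did not overlap, and the log2 fold change was -0.65 (SE 0.21, 95% interval -1.14 to -0.17, limma adjusted p = 0.522), and -0.42 without pre-AML 3. Sytl4, the Rab27 effector granuphilin, overlapped between groups at 39.3 ± 6.58 and 35.0 ± 5.20 FPKM (SD, n = 3, log2 fold change -0.16).

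The other syntaxins (6 tested of 11, median 0.040) were led by Stx7, a late endosomal syntaxin, at 63.4 ± 1.61 FPKM in the controls and 49.7 ± 9.96 FPKM in pre-AML (SD, n = 3). Stx7 libraries did not overlap, but the log2 fold change of -0.37 did not pass (limma adjusted p = 0.522), and it was -0.20 without pre-AML 3. Stx16, a syntaxin of the trans-Golgi network, was at 3.99 and 3.98 FPKM and Stx2, a plasma membrane syntaxin, at 2.87 and 3.01 FPKM, as group means.

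Of the other Qb and Qc SNAREs (8 tested of 14, median 0.015), the Golgi SNARE Gosr2 was at 26.1 ± 1.58 FPKM in the controls, with a log2 fold change of -0.07. Snap29, a SNAP-23 relative of internal membranes, was at 14.9 ± 0.263 and 12.2 ± 2.01 FPKM (SD, n = 3) without overlap, and its log2 fold change of -0.28 did not pass (limma adjusted p = 0.526), and it was -0.17 without pre-AML 3. Snap47 was at 10.5 and 11.4 FPKM.

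The other R-SNAREs (2 tested of 5, median -0.16) were less abundant than Vamp3. Sec22b, which acts between endoplasmic reticulum and Golgi, was at 16.1 and 14.0 FPKM, and Ykt6 at 4.59 and 4.09 FPKM, as group means. Vamp5 was below the filter, at 0.661, 0.814 and 0.435 FPKM in the controls and 1.17, 1.05 and 1.24 FPKM in the pre-AML libraries. Its groups did not overlap, on 14 to 78 reads, and the fit without a filter gave a log2 fold change of 0.40 (limma adjusted p = 0.705).

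The recycling genes (3 tested of 4, median -0.082) were led by Napa, which encodes alpha-SNAP, at 18.9 and 20.0 FPKM, and the ATPase gene Nsf at 8.45 ± 2.28 and 7.01 ± 0.138 FPKM (SD, n = 3). Napg was at 1.21 and 1.07 FPKM. The other Sec1/Munc18 and syntaxin-binding genes (2 tested of 10, median -0.16) were low, with Stxbp5 (tomosyn) at 2.53 and 1.99 FPKM without overlap (log2 fold change -0.24, and -0.17 without pre-AML 3), Stxbp3 at 1.29 and 1.16 FPKM, and Vps33a at 0.997 and 0.910 FPKM.

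The BEACH and alpha-granule genes (2 tested of 11, median 0.14) included Gfi1b, a megakaryocyte transcription factor whose mutation disturbs alpha granules, at 44.7 ± 8.20 and 46.5 ± 5.05 FPKM (SD, n = 3, log2 fold change 0.066). Vipas39, which acts in alpha-granule formation, was at 2.84, 2.80 and 2.86 FPKM in the controls and 2.90, 4.48 and 3.16 FPKM in the pre-AML libraries without overlap, all pre-AML values being higher (log2 fold change 0.22, limma adjusted p = 0.598). Lyst, the Chediak-Higashi gene, was below the filter at 1.05 ± 0.0604 and 0.765 ± 0.0382 FPKM (SD, n = 3); its groups did not overlap, and the fit without a filter gave a log2 fold change of -0.21 (limma adjusted p = 0.705).

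**Figure D4:**
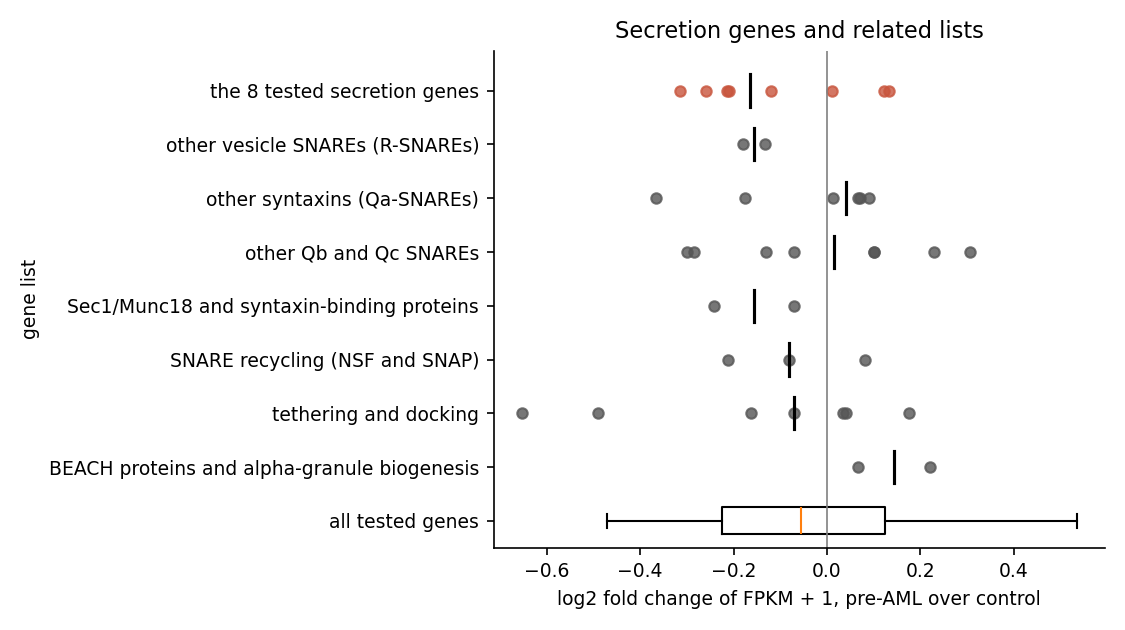
Log2 fold change of FPKM + 1, pre-AML over control, of the 8 tested secretion genes (red) and of the tested genes of 7 related lists (grey), each point a gene and each black bar a list median; the box below shows the quartiles and median of all 4412 tested genes, with whiskers at the 5th and 95th percentiles. The secretion genes lie between -0.31 and 0.13, and the 2 leftmost grey points are Exoc6 and Rab27b.

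The genes whose pattern over the 6 libraries was most like that of Vamp8, by Pearson correlation of log2(FPKM + 1) among the 4412 tested genes, were Zcchc17 (r = 0.992), P4hb (r = 0.984) and Rpl22l1 (r = 0.983). P4hb encodes protein disulfide isomerase and Rpl22l1 a ribosomal protein paralog. The scaling of a library is common to all its genes, and only 6 libraries were compared. Of the 4412 tested genes, 30 reached an r of 0.9 or more. P4hb was at 44.7, 32.7 and 30.6 FPKM in the controls and 29.1, 28.5 and 33.8 FPKM in the pre-AML libraries. Control 1 was the highest, as for Vamp8, but P4hb was chosen for this likeness, so the match is no further result.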

How the data were processed

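Platelet RNA of 3 control and 3 pre-AML samples was analysed. The authors depleted CD45+ and Ter119+ cells, amplified cDNA with SMART-Seq2, made Nextera XT libraries, which do not mark strand, and mapped reads to mm10 with STAR. The counting program and annotation are not given in the sources used here. The deposited table holds FPKM values made by the authors, with symbols and Entrez identifiers. These are not counts, so limma-trend (limma 3.58.1, R 4.3.3) was run on log2(FPKM + 1) of genes averaging 1 FPKM or more, without covariates, with Benjamini-Hochberg adjustment over all tested genes and a threshold of 0.05. The pseudocount shrinks the fold changes of genes at low levels. Shares were compared by exact permutation tests.

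Whole reads were recovered from the most frequent FPKM ratios between libraries and from GENCODE M21 exon lengths (GRCm38). Of the values among 14651 genes with a length, 85.0% came out whole within 0.01 reads, as did all values of the 9 genes. Totals are estimates. Relative to the recovered reads, the library size implied by the FPKM values was 1.26 in pre-AML 3 and 0.941 to 0.972 elsewhere. Scripts used Python 3.11.15 and were tested on simulated data. Vamp7 was part of the planned VAMP share and had no row, so the share is over 3 genes. A planned share of Stxbp2 is not reported here.

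The secretion genes and related lists were chosen with earlier results of these data known. Genes named were all secretion genes, the 3 most abundant of each related list, the 2 most abundant of each marker list and the 3 most like Vamp8. Tyrobp was named as the runner-up of the monocyte list by that rule, and Ccr2, Fcgr1, Pax5, Blk, Cd3g, Cd2, Prf1, Ncr1, Ly6g, Elane, Mpo, Retnlg and Lcn2 because they were at 0 in the controls. A gene at 0 in the controls could not be lower in pre-AML. Alternatives were other pseudocounts, filters, scalings, a replicate block and leaving out each library; scaling to recovered reads or to platelet markers, limma-voom on recovered reads and removal of length and GC trends were chosen after seeing the data.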

Additional observations from a re-analysis of the deposited data

How the results depend on the processing

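Under all 16 alternatives, 0 secretion genes passed an adjusted p of 0.05, and those with a value had adjusted p of 0.331 or more. The number of genes called over the whole table was 1, and it was 0 without a filter, at a mean of at least 5 FPKM, with libraries scaled to equal FPKM sums, to recovered reads or to the platelet markers, and by limma-voom on recovered reads (3526 genes tested). Leaving out each library gave 0 to 2 genes, with 0 without control 1 or control 3 and 2 without pre-AML 3. The counts at unadjusted p under 0.05 were 113 higher and 288 lower in pre-AML, against 281 and 197 with scaling to equal FPKM sums, 252 and 257 with scaling to recovered reads and 256 and 222 with scaling to the platelet markers. One unadjusted p of a secretion gene fell below 0.05 without pre-AML 1 (Snap23) and 1 with length and GC trends removed (Vamp8).

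Stx11 turned to 0.052 with scaling to equal FPKM sums, 0.0070 with quantile normalization, 0.013 with scaling to recovered reads and 0.018 with scaling to the platelet markers. With length and GC trends removed, Stx4a was -0.0047 and Unc13d -0.15. Leaving out each library gave Unc13d -0.046 to 0.050, with -0.028 without control 1 and -0.046 without pre-AML 2. The causes were not tested. The difference in Vamp8 share ran from -2.12 to 2.38 points over the left-out libraries and that in Stx11 share from -0.50 to -0.12 points.

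Samples with the same replicate number did not deviate together (r = -0.043, -0.116 and -0.174 for numbers 1, 2 and 3). The replicate block changed no call, with 1 gene called and 0 secretion genes. With it the paired p of the Vamp8 and Stx11 shares were 1.0 and 0.5 (exact sign-flip test). Vamp2 and Nbeal2 rested on the fewest reads, 42 to 164 a library, but their control CVs of 19.9% and 51.1% were above the 11.0% and 11.6% that counting alone gives.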
